A study of Mus musculus with 10 samples.

Results

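The mitosis genes are 40 genes of the spindle, the kinetochore, cytokinesis and the mitotic kinases and cyclins, chosen by gene symbol. A gene was read from 1 probe set, the one with the highest mean over all arrays among the probe sets annotated to that symbol alone. Such a probe set was found for 38 of the 40 genes, out of 12393 genes with a single-symbol probe set, and Ccnb1 and Cdca8 were not analysed here. The 38 genes have 71 single-symbol probe sets, and 20 of the genes have more than 1.

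The arrays hold total RNA of 5 populations of paw pad cells from wild-type female CD1 mice, purified by fluorescence-activated cell sorting (FACS), with 2 arrays a population. The populations are the basal and the suprabasal layer of the straight sweat duct, the myoepithelial and the luminal cells of the sweat gland, and the palmoplantar epidermis. The title of the series names the search for stem cells of glands and ducts in homeostasis and wound repair, but the labels of these 10 arrays give no wound and no treatment. The labels state no age, sort marker or number of animals per array. They mark both arrays of each population as biological replicates, without naming separate animals or pools, so a p-value here reflects only array-to-array spread, which may be partly technical.

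Mitosis genes are expressed in waves during the cell cycle, and their transcripts and proteins are largely absent from cells that have left the cycle. Cdk1 with a cyclin starts mitosis, Aurora and Polo-like kinases build the spindle, the checkpoint holds anaphase until every kinetochore is attached, and the anaphase-promoting complex then triggers separation and exit. In stratified epithelium the dividing cells lie mainly in the basal layer, and most cells above it have stopped dividing.

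Many of these genes share a pair of promoter elements, the cell cycle genes homology region (CHR, TTTGAA), which the DREAM and MuvB complexes bind, and the CCAAT box, which NF-Y binds. Promoter windows of 300 bases, from 250 before to 50 after the start of the gene, were taken from RefSeq (GRCm38.p6) and matched 35 of the 40 genes with 37 windows. No window was matched for Foxm1, Incenp, Ccna2, Kif20a and Aurkb. The 6 stretches printed here are the last 120 bases before the start, 5′ to 3′ on the strand of the gene, of genes with a CHR downstream of a CCAAT box, chosen to show this arrangement across 4 roles. Capitals mark CHR and CCAAT letters on either strand, so a CHR also reads TTCAAA and a CCAAT box ATTGG.
Cdk1 (chr10:69352913-69353032, minus strand): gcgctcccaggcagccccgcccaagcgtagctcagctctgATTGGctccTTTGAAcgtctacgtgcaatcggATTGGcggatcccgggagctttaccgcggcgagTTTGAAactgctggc
Cdc20 (chr4:118437344-118437463, minus strand): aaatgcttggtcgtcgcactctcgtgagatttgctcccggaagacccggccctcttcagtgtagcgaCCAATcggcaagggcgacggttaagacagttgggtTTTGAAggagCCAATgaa
Ube2c (chr2:164769809-164769928, plus strand): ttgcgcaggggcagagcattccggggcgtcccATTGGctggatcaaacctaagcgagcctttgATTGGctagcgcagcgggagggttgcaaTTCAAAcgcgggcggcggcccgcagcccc
Kif22 (chr7:127042421-127042540, minus strand): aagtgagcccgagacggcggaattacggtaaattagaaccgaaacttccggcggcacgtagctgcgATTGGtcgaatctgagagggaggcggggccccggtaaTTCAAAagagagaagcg
Top2a (chr11:99024190-99024309, minus strand): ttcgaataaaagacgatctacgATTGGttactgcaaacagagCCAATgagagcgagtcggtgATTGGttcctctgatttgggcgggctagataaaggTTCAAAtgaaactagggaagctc
Kif11 (chr19:37376262-37376381, plus strand): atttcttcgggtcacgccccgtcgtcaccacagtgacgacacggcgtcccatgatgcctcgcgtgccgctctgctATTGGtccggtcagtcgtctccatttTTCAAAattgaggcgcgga

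In these 6 stretches the CHR nearest the start began 15 to 29 bases before it, and the CCAAT box began 26 to 37 bases before that CHR. The CHR was present in 73% of the windows of mitosis genes and in 17.9% of all 32851 windows, searched on both strands. A CCAAT box was present in 78.4% against 37.4%, and both together in 64.9% against 6.95%. The CHR-like letters TTTAAA were present in 27% against 13.2%. The E2F core, searched as TTCCCGC with the variants TTGGCGC, then TTCGCGC, and last TTGCCGC, was present in 18.9% against 9.57%, and TATAAA in 2.7% against 13.6%. Over the 12566 windows of genes on the array, the shares were 12.9% for the CHR, 37.1% for the CCAAT box, 5% for both, 10.1% for TTTAAA, 14.5% for the E2F core and 9.81% for TATAAA. Of 25 genes with a CHR, 23 had one within 50 bases of the start. Mad2l1, Melk, Nusap1 and Tacc3 held neither CHR, CHR-like nor CCAAT letters in the window. The median log2 difference of duct basal minus suprabasal cells was 2.90 for the 24 measured genes with a CHR and 2.99 for the 9 with a window but no CHR. A match of letters is a description of the window and not a measured binding site.

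Array values are MAS5 signal, a linear intensity scaled by the submitters so that the trimmed mean is the same on every array, and log2 differences below are on the scale log2(signal + 12). Each comparison was fitted with limma over 9310 genes, and a gene was called where the adjusted p was under 0.05. All 38 mitosis genes passed the filter on low signal, 37 of them also with the duct basal arrays left out, and Cenpe passed only through those arrays. The summed basal keratinocyte markers (Krt5, Krt14, Trp63, Col17a1, Itga6 and Itgb4) were 81246 and 84246 in duct basal cells and 3686 to 42476 elsewhere. Myoepithelial markers were highest in myoepithelial cells, secretory luminal markers in luminal cells and epidermal differentiation markers in epidermis. On the duct suprabasal arrays 6 fibroblast markers summed to 16256 and 86062. Their sum was 23954 and 20172 on the duct basal arrays, above suprabasal array 1, and 1068 to 16289 in epidermis and gland. The 6 endothelial markers summed to 2539 and 13718 in suprabasal cells, against 55 to 615 elsewhere. Of these markers, 3 fibroblast and 6 endothelial ones were called higher in suprabasal than in duct basal cells. The part of fibroblast and endothelial RNA in the levels of mitosis genes was not tested. The dimmest of these markers in its own population was Ivl in epidermis, at 58.1 and 33.5, and no marker list was set for duct suprabasal cells. Since cells were measured in bulk, fewer dividing cells and less RNA per dividing cell cannot be told apart.

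The mitosis genes were highest in duct basal cells. Both duct basal arrays lay above the other 8 arrays for 37 of 38 genes, where 8.3% of all genes tested had that order, and Foxm1 was the exception. The median mitosis gene stood at percentile 87.4 and 85.1 of the duct basal arrays, at 48.8 and 51.2 in duct suprabasal cells, at 56.4 and 60.2 in epidermis, at 35.4 and 32.4 in myoepithelial cells and at 29.3 and 33.4 in luminal cells. Above the 40th percentile of the array lay all 38 genes in duct basal cells, 37 on each epidermis array, 27 and 26 in suprabasal cells, and only 12 to 15 on the 4 gland arrays. Epidermis came second for 28 genes, and the lowest population was luminal for 24 and myoepithelial for 13. However, the gland populations differed past the threshold for only 6 of 38 genes. Of these, 3 were higher and 3 lower in luminal cells (14.6% and 16.5% of all genes).

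**Figure D1:**
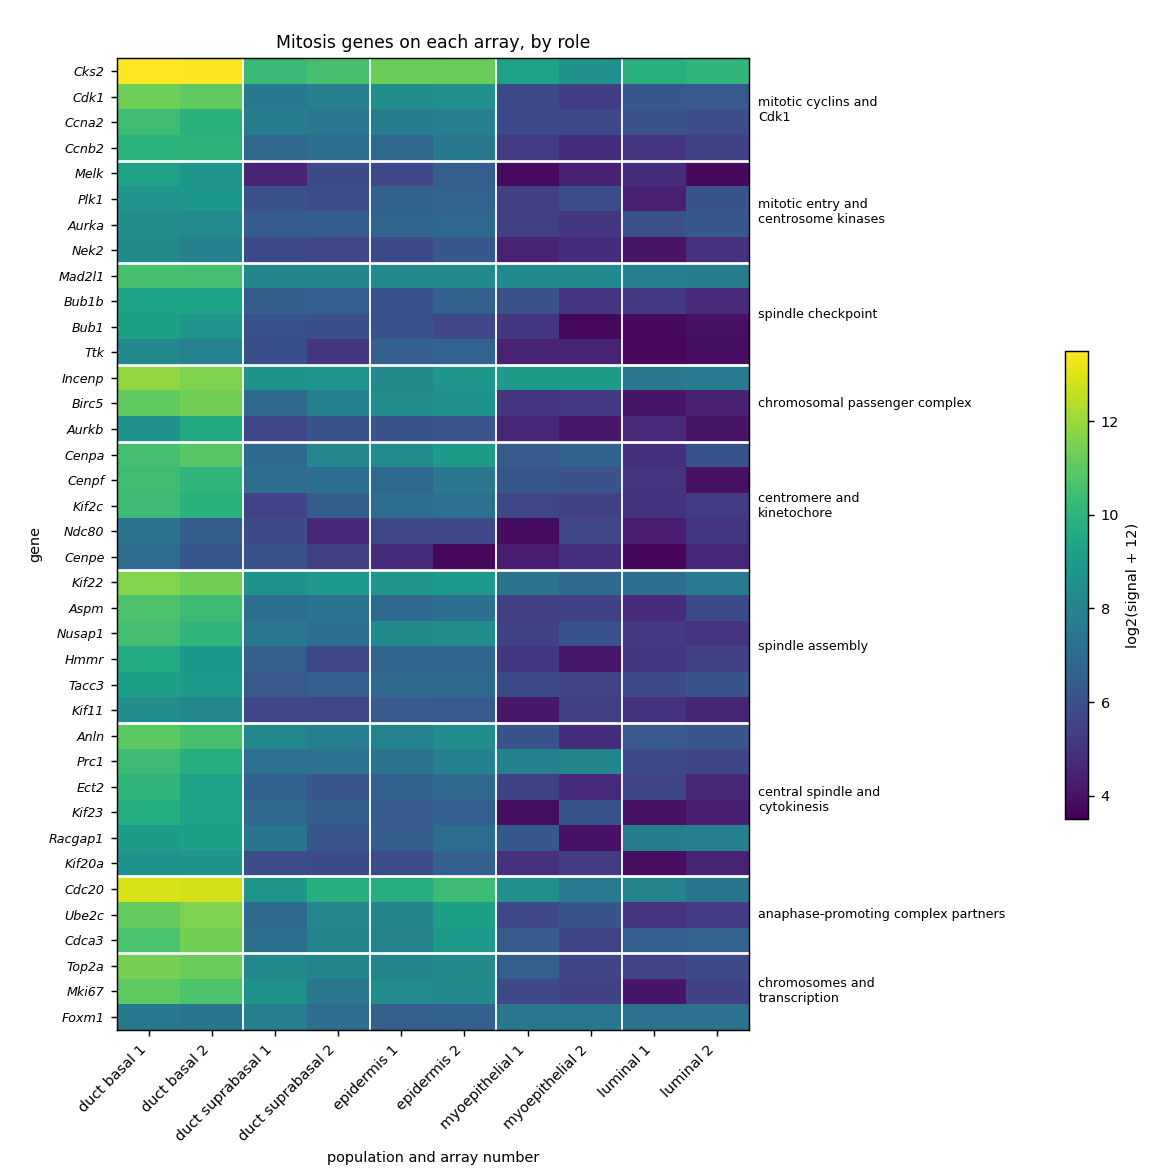
Log2(signal + 12) of the 38 mitosis genes (rows, grouped by role) on each of the 10 arrays (columns, by population). Both duct basal columns are brighter than the other 8 for 37 genes, and Foxm1 in the last row is the exception.

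Relative to the duct basal mean, the median mitosis gene had 11.9% of the signal in duct suprabasal cells, 16% in epidermis, 4.09% in myoepithelial and 2.99% in luminal cells. All genes tested had medians of 103%, 82.8%, 101% and 96.7%. In the gland most of these signals lay below the 40th percentile of the array, so the percentages of single genes there are imprecise. Foxm1 had the highest percentage in each population, 102% in suprabasal cells, 48.8% in epidermis, 96.3% in myoepithelial and 83.7% in luminal cells.

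**Figure D2:**
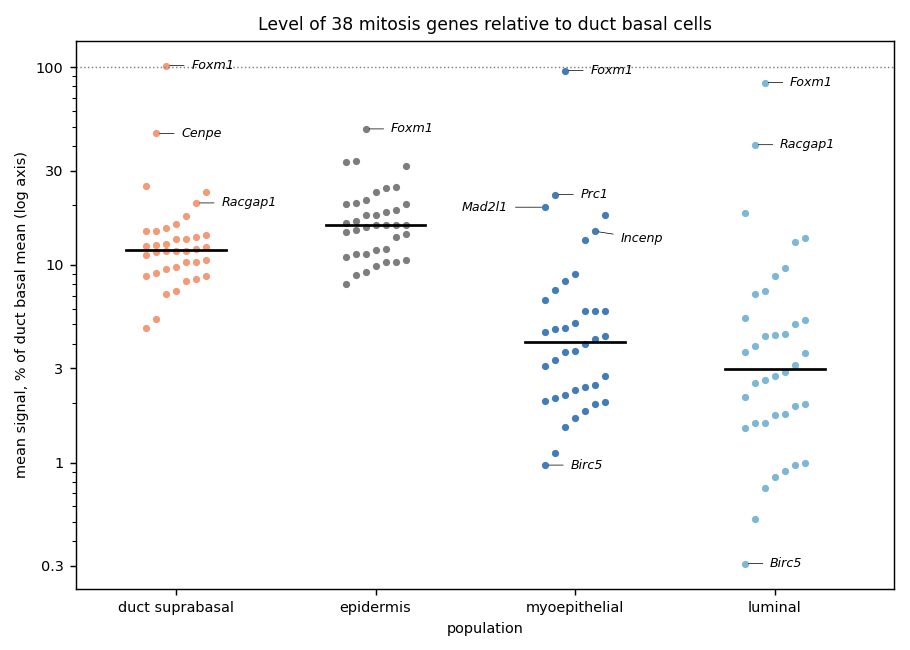
Mean signal of each of the 38 mitosis genes in 4 populations as a percentage of its duct basal mean (log axis; 1 point a gene, 2 arrays a mean; black lines are medians, the dotted line is 100%). The medians lie at 11.9%, 16%, 4.09% and 2.99%, with Foxm1 at the top in each population; the lowest points in the gland rest on signals near the bottom of the array.

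Against duct suprabasal cells, 35 of 38 mitosis genes were higher in duct basal cells and 0 were lower, where 7.98% of all genes tested were higher and 8.39% lower. The median log2 difference was 2.90, beside −0.02 for all genes. Against palmoplantar epidermis 37 were higher and 0 lower (23% of all genes higher, 11% lower), with a median of 2.58 beside 0.24. Against myoepithelial cells 37 were higher and 0 lower (12.3% and 12% of all genes), with a median of 4.44, and against luminal cells 36 were higher and 0 lower (19.2% and 16.3%), with a median of 4.47. The sizes against the gland depend on the pseudocount, since many members are dim there. With a pseudocount of 1 and of 50 the medians were 4.79 and 3.32 against myoepithelial cells and 5.07 and 3.55 against luminal cells, and with the mean of all probe sets they were 3.43 and 3.58. These 4 comparisons share the 2 duct basal arrays and are not independent. The F test of limma over the 5 populations called 36 of 38 members and 65.8% of all genes. The members that were not called were Foxm1 against 3 populations, Ndc80 against suprabasal cells and epidermis, Cenpe against suprabasal cells and Racgap1 against luminal cells.

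Among the mitotic cyclins and Cdk1, all 4 measured genes were higher in duct basal cells than in each other population. Cks2 encodes the small subunit that binds Cdk1. Its signal was 11389 and 11091 on the duct basal arrays, 1219 and 1548 in suprabasal cells, 2455 and 2355 in epidermis, 593 and 388 in myoepithelial cells and 910 and 1058 in luminal cells. The arrays of the 5 populations did not overlap, in the order duct basal, epidermis, suprabasal, luminal, myoepithelial. The duct basal minus suprabasal log2 difference of Cks2 was 3.02 (SE 0.22, adjusted p = 0.000378 by limma). Cdk1, the kinase that starts mitosis, read 2515 and 2143 in duct basal cells, 173 and 220 in suprabasal cells, 332 and 367 in epidermis, 41 and 29.2 in myoepithelial cells and 62.3 and 66 in luminal cells. It followed the same order without overlap, with a duct basal minus suprabasal difference of 3.49 (SE 0.25). Its cyclin partners Ccna2 (2.55) and Ccnb2 (2.97) were also higher in the duct basal layer.

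Of the kinases of mitotic entry and the centrosome, all 4 were higher in duct basal cells in all 4 comparisons. Plk1, the Polo-like kinase of spindle assembly and mitotic exit, gave 410 and 444 in duct basal cells, 51.2 and 48.2 in suprabasal cells, 83.6 and 89.3 in epidermis, 30.6 and 46.3 in myoepithelial cells and 9 and 53.8 in luminal cells. The luminal arrays spanned the whole myoepithelial and suprabasal range. Its duct basal minus suprabasal difference was 2.83 (SE 0.49, adjusted p = 0.00657 by limma), and without duct basal replicate 2 the adjusted p was 0.0551. Aurka, the centrosomal Aurora kinase, differed by 1.94, Nek2, which separates centrosomes, by 2.38, and Melk by 3.86.

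The spindle checkpoint genes were higher in duct basal cells in all 4 comparisons, 4 of 4 each. Mad2l1, the checkpoint protein that blocks Cdc20, read 1510 and 1493 in duct basal cells, 263 and 264 in suprabasal cells, 281 and 289 in epidermis, 301 and 289 in myoepithelial cells and 211 and 200 in luminal cells. The 8 arrays outside the duct basal layer lay in a narrow band, while for most members the gland arrays lay below those of suprabasal cells and epidermis. Its difference from suprabasal cells was 2.46 (SE 0.19, adjusted p = 0.000378 by limma) and that from myoepithelial cells 2.30 (SE 0.19). The checkpoint kinases Bub1 and Ttk and the kinase-like Bub1b differed from suprabasal cells by 2.99, 2.55 and 2.83. On the luminal arrays Bub1 read 1.6 and 3.5 and Ttk 1 and 2.8, near the lowest signals of the data.

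In the chromosomal passenger complex, which corrects faulty attachments and directs cleavage, all 3 measured genes were higher in duct basal cells in all 4 comparisons. Incenp, the scaffold of the complex, had signals of 3796 and 3030 in duct basal cells, 394 and 422 in suprabasal cells, 281 and 430 in epidermis, 507 and 502 in myoepithelial cells and 170 and 187 in luminal cells. Birc5, also called survivin, gave 2124 and 2614 in duct basal cells, 113 and 225 in suprabasal cells, 307 and 385 in epidermis, 21.4 and 24.6 in myoepithelial cells and 5 and 9.6 in luminal cells. For Birc5 the duct basal, epidermis and suprabasal arrays did not overlap and the gland arrays lay below them, while myoepithelial cells came second for Incenp. On another Incenp probe set that passed the filter, the myoepithelial arrays read 89.8 and 53.1. They overlapped there with suprabasal cells (57.9 and 70.6) and epidermis (37.2 and 99.2). Birc5 was higher in duct basal than in suprabasal cells by 3.78 (SE 0.34, adjusted p = 0.000491 by limma). It was also called against luminal cells, where its signal lay below the pseudocount of 12 and its log2 difference ran from 5.39 to 8.21 over the alternatives. The kinase of the complex, Aurkb, differed from suprabasal cells by 3.24.

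Kinetochore genes were less even. Cenpa, the histone variant that marks the centromere, read 1445 and 1894 in duct basal cells, 108 and 265 in suprabasal cells, 319 and 503 in epidermis, 71.2 and 86.7 in myoepithelial cells and 17.9 and 53.6 in luminal cells. Its difference from suprabasal cells was 3.19 (SE 0.48, adjusted p = 0.00402 by limma). Kif2c, a microtubule-depolymerising kinesin of the centromere, read 1313 and 954 in duct basal cells and 33.1 and 75.5 in suprabasal cells. Its difference of 4.17 (SE 0.37, adjusted p = 0.000491) was the largest of the 38 in that comparison. It has 4 probe sets, and the mean of all of them differed by 1.32.

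Cenpe, a kinesin that moves chromosomes to the spindle equator, and Ndc80, the outer kinetochore protein that holds microtubules, were dim. Cenpe gave 119 and 65.1 in duct basal cells, 54.9 and 30.3 in suprabasal cells, and at most 16.5 on the other 6 arrays. The duct basal minus suprabasal difference of Cenpe was 0.92 (SE 0.58, adjusted p = 0.311 by limma), and its arrays did not overlap. Ndc80 read 153 and 74.4 in duct basal cells and 44.3 and 12.8 in suprabasal cells, 38.2 and 37.3 in epidermis, 2.3 and 38.1 in myoepithelial cells and 7.7 and 22.1 in luminal cells. Its difference from suprabasal cells was 1.68 (SE 0.68, adjusted p = 0.125) and from epidermis 1.26 (adjusted p = 0.185). Both genes were called against the 2 gland populations, where the calls of Ndc80 had adjusted p of 0.047 and 0.0322. Leaving out either duct basal array ended both gland calls of Ndc80, as did others of its 18 alternatives, 11 against myoepithelial and 7 against luminal cells in all.

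Spindle assembly genes were higher in duct basal cells for 6 of 6 in all 4 comparisons. Kif22, a chromosome-bound kinesin, had signals of 3170 and 2562 in duct basal cells, 393 and 464 in suprabasal cells, 431 and 456 in epidermis, 151 and 111 in myoepithelial cells and 130 and 179 in luminal cells. Suprabasal cells overlapped with epidermis, and the 2 gland populations overlapped below them. Its difference from suprabasal cells was 2.71 (SE 0.24, adjusted p = 0.000491 by limma). Aspm of the spindle pole differed by 3.28, the microtubule-binding Nusap1 by 2.99, Hmmr by 3.13, Kif11, the motor that separates spindle poles, by 2.64, and Tacc3 by 2.63. The mean of all probe sets of Tacc3 ended its calls against suprabasal cells and epidermis.

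For the central spindle and cytokinesis, all 6 genes were higher in duct basal than in suprabasal cells, but their levels in the gland diverged. Anln, the actin-binding anillin of the contractile ring, read 2008 and 1534 in duct basal cells, 272 and 207 in suprabasal cells, 238 and 328 in epidermis, 55.9 and 15.7 in myoepithelial cells and 66 and 61.2 in luminal cells. Its difference from suprabasal cells was 2.83 (SE 0.40, adjusted p = 0.00332 by limma). Ect2, which acts at the cleavage plane, differed by 3.27. The mitotic kinesins Kif20a and Kif23 differed by 2.79 and 2.81, and leaving out either duct basal array ended the call of Kif23.

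The genes grouped with the anaphase-promoting complex and the proliferation markers showed the same pattern. Cdc20, its mitotic activator, read 7506 and 7299 in duct basal cells, 431 and 870 in suprabasal cells, 844 and 1289 in epidermis, 357 and 187 in myoepithelial cells and 236 and 154 in luminal cells, a difference from suprabasal cells of 3.57 (SE 0.40, adjusted p = 0.00121 by limma). Ube2c, its ubiquitin-conjugating enzyme, differed by 3.79 and Cdca3 by 3.40. Top2a, which untangles chromosomes, gave 2806 and 2456 in duct basal cells, 286 and 258 in suprabasal cells, 259 and 287 in epidermis, 79.3 and 36.3 in myoepithelial cells and 34.3 and 44 in luminal cells. Suprabasal and epidermis arrays overlapped, and Top2a was higher in duct basal than in suprabasal cells by 3.22 (SE 0.31, adjusted p = 0.000669). Mki67, which codes for the Ki-67 antigen, differed by 2.79.

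Foxm1, a transcription factor that drives many of these genes, did not follow them on its chosen probe set. That probe set read 176 and 155 in duct basal cells, 214 and 124 in suprabasal cells, 79.9 and 81.8 in epidermis, 162 and 158 in myoepithelial cells and 140 and 138 in luminal cells. Duct and gland arrays lay in 1 band, with epidermis below. The duct basal minus suprabasal difference was 0.02 (SE 0.30, adjusted p = 0.977 by limma), and those from myoepithelial and luminal cells were 0.05 and 0.24, also not called. Foxm1 was higher in duct basal cells than in epidermis (0.93, adjusted p = 0.0364), a call that 10 of 17 alternatives ended. Of its 3 other probe sets, 1 passed the filter, with 64.6 and 86.9 in duct basal cells and 69.5 and 77.5 in suprabasal cells, but 5.9 and 55.6 in myoepithelial and 12.5 and 23.3 in luminal cells. A dim one read 35.2 and 8.6 in duct basal cells, 4.9 and 2 in suprabasal cells and at most 7.5 elsewhere. The probe sets of Foxm1 thus disagree on the gland, and the dim one also departs on suprabasal cells, by 1.02.

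**Figure D3:**
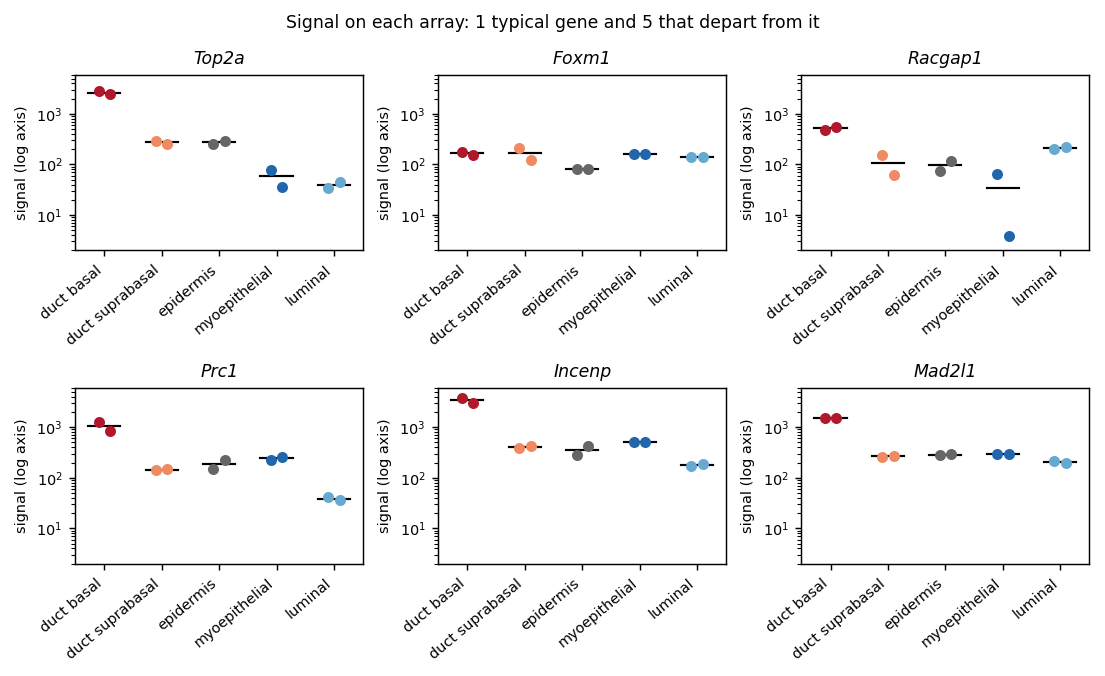
Signal (log axis) on each array for Top2a, a typical gene, and for 5 genes that depart from it, by population; points are arrays and lines are means of 2. On the chosen probe sets, Foxm1 is flat over duct and gland, Racgap1 is raised in luminal cells at 202 and 221, Prc1 and Incenp in myoepithelial cells, and Mad2l1 is alike in all 4 populations outside the duct basal layer. Other probe sets of Foxm1 and Incenp differ in part.

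Within the gland, where most mitosis genes were dim, 3 were higher in luminal than in myoepithelial cells and 3 were lower, where 14.6% and 16.5% of all genes were. Luminal minus myoepithelial differences had a median of −0.29, beside −0.08 for all genes. Racgap1, a subunit of the centralspindlin complex, read 202 and 221 in luminal cells, 65.1 and 3.9 in myoepithelial cells, 484 and 557 in duct basal cells, 154 and 60.9 in suprabasal cells and 75.1 and 119 in epidermis. Luminal cells were second only to duct basal cells, without overlap with the other populations. Its luminal minus myoepithelial difference was 2.67 (SE 0.66, adjusted p = 0.0145 by limma), and its duct basal minus luminal difference was 1.25 (SE 0.66, adjusted p = 0.176). Without 1 array the luminal minus myoepithelial difference ran from 1.53, without myoepithelial replicate 2, to 3.81, and the call ended without that array or either luminal array. A second Racgap1 probe set read 209 and 152 in luminal and 74 and 25.1 in myoepithelial cells. The duct basal minus suprabasal call of Racgap1 (adjusted p = 0.0468 by limma) ended in 11 of 19 alternatives and the call against epidermis in 6. The brighter myoepithelial and suprabasal arrays of Racgap1 were those with the higher sum of secretory luminal markers (17633 against 7853, and 35171 against 15938, beside 64882 and 78018 in luminal cells), whose part in its level was not tested. Cks2 was higher in luminal cells by 1.01 (adjusted p = 0.0088), a call that ended without myoepithelial replicate 2 or luminal replicate 2. Aurka was higher by 0.88 (adjusted p = 0.0469), a call that 13 of 19 alternatives ended.

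The genes lower in luminal than in myoepithelial cells were Prc1, Incenp and Cenpf. Prc1, which bundles the microtubules of the central spindle, read 223 and 260 in myoepithelial cells, 41 and 35.7 in luminal cells, 1288 and 835 in duct basal cells, 141 and 146 in suprabasal cells and 152 and 227 in epidermis. Its luminal minus myoepithelial difference of −2.33 (SE 0.29, adjusted p = 0.000695 by limma) was called in all 19 alternatives, and a second probe set read 175 and 127 against 8.5 and 26.5. For Incenp, given above, the difference was −1.44 (SE 0.24, adjusted p = 0.00223), and the mean of its probe sets ended the call. Cenpf, a large kinetochore protein, gave 59.6 and 55.4 in myoepithelial and 19.8 and 3.5 in luminal cells, a difference of −1.65 (SE 0.38, adjusted p = 0.0107) that was not called without myoepithelial replicate 2, without luminal replicate 2 or with the mean of its probe sets. Immune markers were also higher on the myoepithelial arrays (summed signal 3849 and 5608 over 7 genes, against 161 to 1220 elsewhere), and their part in these levels was not tested. Without myoepithelial replicate 2, or without luminal replicate 2, 2 of 38 genes were called in this comparison rather than 6.

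The palmoplantar epidermis kept more of the mitosis genes than the gland. It was higher than luminal cells for 32 of 38 genes and lower for 0 (19.2% of all genes higher, 26.1% lower), with a median difference of 1.82. It was higher than myoepithelial cells for 28 and lower for 1 (19.9% and 31.7% of all genes), with a median of 1.65. Without epidermis replicate 2 the count against luminal cells was 20. Birc5 differed by 4.22 and 3.35, Ube2c by 3.49 and 2.75 and Mki67 by 3.51 and 2.69. The size of Birc5 against luminal cells, where it is dim, ran from 2.78 to 5.43 over the alternatives. Of the members only Foxm1 was called lower in epidermis than in myoepithelial cells, with a difference of −0.89 (adjusted p = 0.031 by limma). That call ended in 6 of 17 alternatives, and the other Foxm1 probe set that passed the filter differed by 0.61 in the opposite direction. Racgap1 (−1.06 against luminal cells, adjusted p = 0.221), and Incenp and Prc1 (−0.52 and −0.35 against myoepithelial cells, adjusted p 0.0913 and 0.338), were not called. The medians of all genes were −0.16 and −0.28 in these comparisons. Median signals over all probe sets were 65.7 and 67.3 on the epidermis arrays and 92.7 to 120.1 on the other 8.

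Against duct suprabasal cells, 6 of 38 mitosis genes were higher in epidermis, a share near the 16.7% of all genes, and 1 was lower (29.4% of all genes). Of the 38 differences 30 were positive, with a median of 0.34 beside −0.25 for all genes. Kif2c was higher by 1.22 (SE 0.37, adjusted p = 0.0239 by limma), with 125 and 144 in epidermis, and Ttk by 1.11, with 83.9 and 87.8 against 49.4 and 21.6. Birc5 was higher by 1.05, Nusap1, with 299 and 323 against 163 and 132, by 1.03, and Cdk1 and Cks2 each by 0.80. Foxm1 was lower, with a difference of −0.92. The call of Ttk ended in 14 of 19 alternatives. The arrays of these 7 genes did not overlap between the 2 populations, which adds little, since the genes were picked by the test. The count of 7 called genes depended on 1 array and on the scaling. It was 1 without epidermis replicate 1, 0 without epidermis replicate 2 (4 at an unadjusted p under 0.05 in limma) and 2 without suprabasal replicate 1. With quantile normalization, which moved the median of all genes from −0.25 to 0.17, it was 21, all higher in epidermis. Of all 9310 genes, 4074 were called under that setting, against 4287 in the main fit. No share of all genes is given for the unadjusted threshold, so the count of 4 has no background.

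Duct suprabasal cells in turn were higher than luminal cells for 22 of 38 genes and lower for 0 (10.2% of all genes higher, 4.95% lower). They were higher than myoepithelial cells for 14 and lower for 0 (9.26% and 8.15%). The median differences were 1.52 and 1.26. Mki67 differed by 3.28 and 2.46, Birc5 by 3.17 and 2.30 and Top2a by 2.48 and 2.09. The size of Birc5 against luminal cells ran from 1.89 to 4.33 over the alternatives. Against luminal cells the count was 6 without luminal replicate 1 and 12 without luminal replicate 2. Fitted with only the 4 arrays compared, the counts were 0 (25 at an unadjusted p under 0.05) and 1. The 2 suprabasal arrays differed in their fibroblast and endothelial markers by the values given above, and 6 of 38 mitosis genes differed over 2-fold between them, beside 20.1% of all genes. The median difference of the 38 between these 2 arrays was 0.01.

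Duct and gland each have an outer and an inner layer, and the layer difference of the mitosis genes was tested between them. The duct basal minus suprabasal difference exceeded the myoepithelial minus luminal difference for 29 of 38 genes and was lower for 0 (5.95% and 10% of all genes). The median was 2.79 beside −0.05 for all genes. For genes dim in both gland layers this contrast largely repeats duct basal against suprabasal cells. For Cdk1 the layer difference was 3.49 in the duct and −0.70 in the gland, and for Cks2 3.02 and −1.01. Prc1 had 2.75 in the duct and 2.33 in the gland, a difference of 0.42 (SE 0.42, adjusted p = 0.522 by limma). The other genes that were not called were Cenpf, Cenpa, Cenpe, Kif23, Ttk, Mki67, Ndc80 and Foxm1.

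Other lists of cell cycle and spindle genes were compared in the same way, beside 7.98% of all genes higher and 8.39% lower in duct basal than in suprabasal cells. Of 17 tested genes of replication licensing and S phase, 16 were higher in duct basal than in suprabasal cells and 0 lower, with a median of 2.00 beside 2.90 for the mitosis genes and −0.02 for all genes. Tk1, thymidine kinase, differed by 3.67, Uhrf1, which maintains DNA methylation, by 3.30, Rrm2, a subunit of ribonucleotide reductase, by 3.27 and the licensing factor Cdt1 by 2.80. Among the condensins, which compact chromosomes, 4 of 7 were higher (Ncapg 2.56, Ncaph 2.30, Smc2 2.02 and Smc4 1.44). Ncapd2 departed from them, with 459 and 384 in duct basal cells and 2044 and 1625 in luminal cells. Of 9 cohesin genes 2 were higher, Sgo1, the shugoshin that protects cohesin (3.07), and Pttg1, the securin that restrains separase (2.55). Of 12 core and partner genes of the anaphase-promoting complex 1 was higher, the partner Ube2s by 1.22, a share near that of all genes. Of 13 tubulin and motor genes 4 were higher, among them Tubb5 by 1.34.

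The lists of regulators upstream of mitosis are small, and their counts are to be read against the same 7.98% and 8.39% of all genes. Cdc25c (2.84) and Cdc25b (1.06), phosphatases that activate Cdk1, were the 2 of 6 in their list that were higher. In the Rb and E2F list 3 of 10 were higher, the late repressor E2f8 (3.06), the pocket protein Rbl1 (1.59) and Tfdp1 (0.92), and E2f5 was lower (−1.07). Mybl2, which codes for B-Myb, was higher by 1.62 and the only one of 4 in its list, with a signal of at most 76.4. Of 7 G1 cyclins and kinases 3 were higher, Ccnd2 (2.50), Ccne2 (1.57) and Cdk4 (1.14). Of 6 inhibitors Cdkn2d was higher (1.41), and Cdkn1a, which encodes p21 (−1.09), and Cdkn2b, which encodes p15 (−1.36), were lower in duct basal cells. Cdkn1a gave 10550 and 8976 and Cdkn2b 1492 and 1330 in epidermis, above the other 8 arrays.

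**Figure D4:**
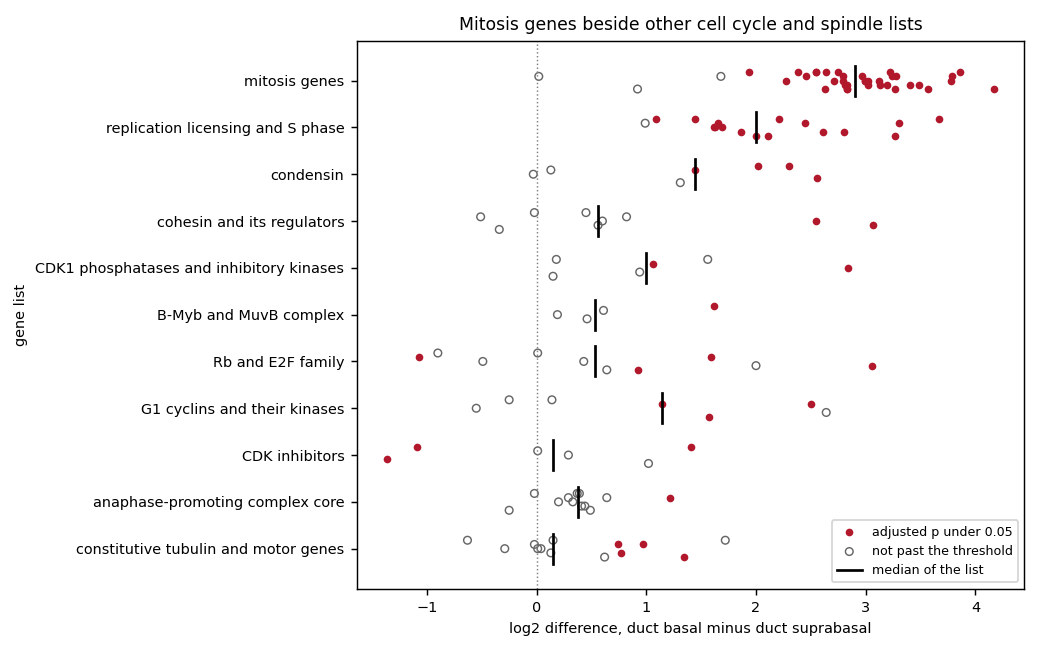
Log2 difference of duct basal minus duct suprabasal cells for the tested genes of the mitosis list and 10 other lists (1 point a gene; filled where the adjusted p is under 0.05; black ticks are list medians). The median is 2.90 for mitosis genes, 2.00 for replication and S phase and 1.44 or less for the other 9 lists.

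Most members lay near their own mean profile, which they themselves set, so a shorter distance than for all genes is partly built in. After each gene was standardised over the 10 arrays, the root mean square distance from the mean profile of the members was 0.122 for Kif22, 0.255 for the median member, 0.803 for Racgap1 and 1.27 for Foxm1, beside a median of 1.35 for all genes tested. The 8 nearest genes outside the list were Spc25 (0.172), Lig1 (0.183), Pttg1 (0.188), E2f8 (0.197), Spag5 (0.207), Shcbp1 (0.218), Mcm6 (0.224) and Ska1 (0.228), a likeness in level over 10 arrays of 5 populations. Between the arrays of a population, 9 of 38 genes were brighter on array 2 in duct basal cells, 20 in suprabasal cells, 31 in epidermis, 15 in myoepithelial and 25 in luminal cells. Across probe sets, all 23 further probe sets that passed the filter had the same sign as the chosen one in duct basal minus suprabasal, while 7 of 10 dim ones had the opposite sign. Some of the 23 passed only through the duct basal arrays, so their shared sign is largely built in. A Kif23 probe set, for instance, read 90.9 and 88.1 in duct basal cells and at most 29.5 elsewhere. Against epidermis a passing probe set of Kif2c went the other way (−0.73). It read 52.6 and 47.3 in duct basal cells and 81.8 and 99.8 in epidermis.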

How the data were processed

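Total RNA of FACS-purified cells was extracted with Trizol and labelled as biotinylated cRNA, per the labels' protocols. The deposited values are MAS5 signal intensity, per the submitters' processing notes, with the version not given in the sources used here. With 2% of values trimmed at each end, each array has a mean of 500.0, so differences are relative to each array's total. Of 22690 probe sets, 64 were controls, 20380 had 1 symbol in the platform annotation, 691 several and 1555 were not listed. Signals were converted to log2 after adding 12, with no further normalization, and 9310 genes were tested, those that exceeded an array's 40th percentile on 2 or more of the 10 arrays. All genes were fitted in 1 linear model of 10 arrays with limma 3.58.1 in R 4.3.3, with variances that follow the mean and Benjamini-Hochberg adjustment of p-values over all genes tested. The model has 5 residual degrees of freedom, and the number of arrays limits the precision. The code was tested on simulated data. No set test was run.

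The members and lists were chosen with earlier results of these data known. Per-array values are given for the gene with the highest mean in each of 9 roles and for genes whose call differs from most. From other lists, up to 4 called genes with the largest duct basal minus suprabasal difference, and any that goes against the rest, are named. The alternatives were other pseudocounts, filters, quantile normalization, the mean of all probe sets, no variance trend, the replicate number as a block, only the 4 arrays compared, and each array left out. Symbols follow the annotation, where 0 changed on matching to RefSeq, and promoter windows come from RefSeq by symbol.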

Additional observations from a re-analysis of the deposited data

Results flagged for a closer look

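The difference between the layer differences of duct and gland was larger than the spread between arrays for 29 of the 38 mitosis genes. This was by the interaction test of limma adjusted over all genes, and in all 29 the duct difference was the higher one. Of all genes, 5.95% were called higher in this test and 10% lower. Only 12 to 15 of the 38 genes lay above the 40th percentile of each gland array. For genes dim in both gland layers the test largely repeats duct basal against suprabasal cells. Among genes with a small error, the duct basal minus suprabasal difference exceeded the myoepithelial minus luminal difference by 4.20 on the log2 scale for Cdk1 (SE 0.35, adjusted p = 0.000329), by 4.03 for Cks2 (SE 0.32, adjusted p = 0.00028) and by 2.93 for Kif22 (SE 0.35, adjusted p = 0.00132). For Racgap1 it was 4.95 (SE 0.94, adjusted p = 0.00959 by limma), the largest of the 38, from a gland whose 2 myoepithelial arrays read 65.1 and 3.9.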

How the results depend on the processing

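Of 226 counts of called members recomputed under an alternative, 212 stayed within 1.5 times the count reported and 14 did not, and of 7860 differences of single members 7342 kept their call, 417 lost it, 101 gained it and 0 that were called reversed. Members called in luminal against myoepithelial cells were 10 with a pseudocount of 1, against 6. In epidermis against suprabasal cells they were 4 without the filter, 21 with quantile normalization and 2 with only the 4 arrays compared, against 7. With only those 4 arrays they were 0 in suprabasal against luminal cells and 1 in suprabasal against myoepithelial cells, where fewer arrays estimate the spread. No share of all genes at an unadjusted p is given here, so a count at that threshold has no background. With each array left out in turn, a lone array being assumed to vary like the others, duct basal cells had 32 to 35 calls against suprabasal, 35 to 37 against myoepithelial and 34 to 37 against luminal cells and 30 to 37 against epidermis. Epidermis had 0 to 9 against suprabasal (0 without epidermis replicate 2, with 4 at an unadjusted p under 0.05), 21 to 30 against myoepithelial and 20 to 33 against luminal cells. Suprabasal cells had 6 to 21 against luminal and 11 to 17 against myoepithelial cells, luminal against myoepithelial cells 2 to 8, the layer differences 21 to 29 and the F test over the populations 35 to 38, against 36.

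Counts of all genes called also moved, for duct basal against suprabasal cells from 1524 to 449 without duct basal replicate 2 and to 242 with only the 4 arrays compared, and for suprabasal against luminal cells from 1413 to 315 without luminal replicate 1 and to 36 with only the 4 arrays. The same replicate numbers occur in every population with no pairing stated. Deviations of same-numbered arrays correlated over 0.1 in 6 of 10 pairs of populations, those among the 4 duct and gland populations (range over all pairs 0.03 to 0.36), and below it in the 4 pairs with epidermis, so the numbers were not taken to pair all samples. With the replicate block the member counts were 35, 36, 36 and 37 for duct basal against suprabasal, myoepithelial, luminal and epidermis, 8, 29 and 32 for epidermis against suprabasal, myoepithelial and luminal, 23 and 18 for suprabasal against luminal and myoepithelial, 7 in the gland and 30 for the layer differences. The block ended the calls of Ndc80 in duct basal against myoepithelial cells and of Aurka in luminal against myoepithelial cells. No detection calls were used, and members with signals near the pseudocount of 12 have no reliable order in the gland.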
